A study of Arabidopsis thaliana with 36 samples.

Results

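The root hair development and growth genes described here are 10 loci of *Arabidopsis thaliana*, chosen as the rows of the count table whose locus is one of a fixed list, 10 of 37973 rows in all. They are the transcription factor genes *RHD6*, *RSL2*, *RSL4* and *GL2*, and *RHD2*, *COBL9* (named *SHV2* in the table), *EXPA7*, *EXPA18*, *LRX1* and *PRP3*, whose products act in hair growth. All 10 were found, and all 10 passed the filter of at least 15 reads summed over the libraries.

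RNAseq covered 12 groups with 3 biological replicates each, or 36 libraries. Bends of the Col-0 wild type (WT) and the *puchi-1* mutant were taken at 5 times, 12, 18, 24, 30 and 36 hpg (hours post-gravistimulation), alongside ‘No LR’ segments from both genotypes, mature root lying above the bend towards the shoot. Seedlings of both genotypes were grown in continuous light and were 4 days old at gravistimulation, so later bends came from older seedlings. A bend replicate pooled more than 400 seedlings and a ‘No LR’ replicate about 400 segments, harvested at 12 hpg by the study’s methods and at 9 h by the sample labels. Gravistimulation turns the root so that it bends, and lateral root (LR) primordia form at the bend. The time course asks how expression changes there as primordia develop, and the mutant asks what depends on PUCHI, an AP2/ERF transcription factor. The labels name no other allele or agent, and *puchi-1* is a single mutant line.

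Root hairs are tubular outgrowths of single epidermal cells. In the Arabidopsis root, epidermal cells over a cleft between cortical cells form hairs, and those over a single cortical cell do not. GL2, a homeodomain protein of the non-hair cells, represses the hair programme there. In hair cells RHD6 starts the programme and acts through the related bHLH factors RSL4 and RSL2, which drive growth. The hair then grows at its tip, where expansins (EXPA7, EXPA18) loosen the wall, RHD2 (the NADPH oxidase RBOHC) makes reactive oxygen species, and LRX1, PRP3 and the GPI-anchored COBL9 take part in wall assembly. Every library here is RNA of a whole segment, so a lower level cannot be told apart from fewer hair cells in the segment or less RNA of a gene per hair cell.

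The genes lie on 4 chromosomes of TAIR10.1. *RHD6* (AT1G66470, chromosome 1, 24795214 to 24797015), *RSL4* (AT1G27740, chromosome 1, 9654475 to 9656089), *GL2* (AT1G79840, chromosome 1, 30036956 to 30041440), *EXPA7* (AT1G12560, chromosome 1, 4276505 to 4277969), *EXPA18* (AT1G62980, chromosome 1, 23331563 to 23333246), *LRX1* (AT1G12040, chromosome 1, 4069992 to 4072681) and *PRP3* (AT3G62680, chromosome 3, 23182722 to 23184042) are on the plus strand. *RSL2* (AT4G33880, chromosome 4, 16239363 to 16241169), *COBL9* (AT5G49270, chromosome 5, 19971884 to 19974530) and *RHD2* (AT5G51060, chromosome 5, 20757199 to 20762461) are on the minus strand.

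The 300 bases before the annotated start of each gene were searched on both strands for the root hair element (RHE), a degenerate motif known from promoters of hair-specific genes and bound by RSL4. A match was found in 4 of the 10 genes, namely *EXPA7*, *EXPA18*, *LRX1* and *PRP3*, against 251 of 27443 protein-coding genes (0.915%). Because the motif comes from promoters of hair-specific genes, which may include members, this share is not an independent test of enrichment. All 4 encode wall proteins, and none of the 4 transcription factor genes had a match. Whole windows are shown for the 3 that overlap no other annotated gene, with the match in capitals, from the RefSeq TAIR10.1 genome, read 5′ to 3′ on the plus strand. Counted back from the gene start, the match covers bases 78 to 62 in *EXPA7*, bases 93 to 78 in *LRX1* and bases 167 to 151 in *PRP3*, and in the latter pair it is on the strand opposite to the gene.
*EXPA7* (chr1:4276205-4276504): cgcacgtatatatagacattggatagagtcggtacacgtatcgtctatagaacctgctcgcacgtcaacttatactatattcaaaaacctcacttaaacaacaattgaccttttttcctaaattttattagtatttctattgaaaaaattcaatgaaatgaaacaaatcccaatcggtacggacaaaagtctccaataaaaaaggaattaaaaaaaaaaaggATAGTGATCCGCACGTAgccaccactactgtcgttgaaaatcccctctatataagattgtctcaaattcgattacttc
*LRX1* (chr1:4069692-4069991): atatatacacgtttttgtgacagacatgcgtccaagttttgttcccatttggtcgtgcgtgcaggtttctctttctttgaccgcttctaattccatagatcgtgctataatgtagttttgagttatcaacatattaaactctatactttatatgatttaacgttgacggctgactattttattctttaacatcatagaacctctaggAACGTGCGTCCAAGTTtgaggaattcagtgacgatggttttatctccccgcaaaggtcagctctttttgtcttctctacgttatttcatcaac
*PRP3* (chr3:23182422-23182721): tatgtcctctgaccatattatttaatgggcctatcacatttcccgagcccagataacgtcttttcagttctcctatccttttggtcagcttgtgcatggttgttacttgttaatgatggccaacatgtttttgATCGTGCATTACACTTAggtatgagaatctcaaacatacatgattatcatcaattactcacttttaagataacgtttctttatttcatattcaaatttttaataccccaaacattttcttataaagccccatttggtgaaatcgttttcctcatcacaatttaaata

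The window of *EXPA18* overlaps the gene AT1G62978, and only its match is given, which lies from 40 to 25 bases before the start and reads AACATGAACGCACGTC (chr1:23331523-23331538, plus strand). Written on the strand that matches, those of the other genes are ATAGTGATCCGCACGTA for *EXPA7*, AACTTGGACGCACGTT for *LRX1* and TAAGTGTAATGCACGAT for *PRP3*. All 4 share the run GCACG near the 3′ end, where the search pattern itself requires CACG after a G or a T. The L1 box bound by homeodomain factors such as GL2 (TAAATGCA or TAAATGTA, either strand) was in 0 of the 10 windows and in 5.51% of all, and the sequence CACGTG was in 0 of the 10 and in 7.09% of all. A match is a description of these letters, and a window without one says nothing about the factor.

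Expression levels are given as CPM, the counts per 1000000 counts of a library after TMM scaling. The libraries held 31.7 to 121.6 M counts each (median 48.1 M). The median and the upper part of this range lie above the number of sequenced clusters per library in the study’s methods, so whether each count is a separate fragment is not known. *PUCHI*, the gene mutated in *puchi-1*, was counted in every library, at 5.16 to 20.2 CPM in the WT and 9.47 to 40.6 CPM in *puchi-1*, and in each of the 6 segments every *puchi-1* library lay above every WT library, so the level separates the genotypes as labelled. Among the members, *RHD2* was counted at 1020 to 3850 reads per library, *GL2* at 104 to 665 and *RSL2* at 138 to 2774. The other members reached 9 reads or fewer in at least 1 library, with *RSL4* and *EXPA7* at 0 reads in 1 library each, a count that allows up to 3. Tests were edgeR quasi-likelihood tests. A difference passed where p, adjusted by Benjamini-Hochberg over the 25889 genes tested, was under 0.05, and it was called where the log2FC also lay beyond 1 or -1.

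All 10 genes were at their highest group mean in bends at 12 hpg in both genotypes, and all 10 were lower at 36 hpg. In *puchi-1*, all 10 were called lower at 36 than at 12 hpg, with log2FC from -6.13 for *EXPA18* to -1.1 for *GL2*, beside 7.6% of all genes tested. In the WT, 4 of the 10 were called lower (*RHD6*, *RSL2*, *EXPA18* and *RHD2*), beside 6.33% of all genes, and the log2FC of the 10 ran from -3.95 to -0.9. In no bend group did any of the 10 pass the test between the genotypes. The plot of the 10 genes by library shows each of these values.

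**Figure D1:**
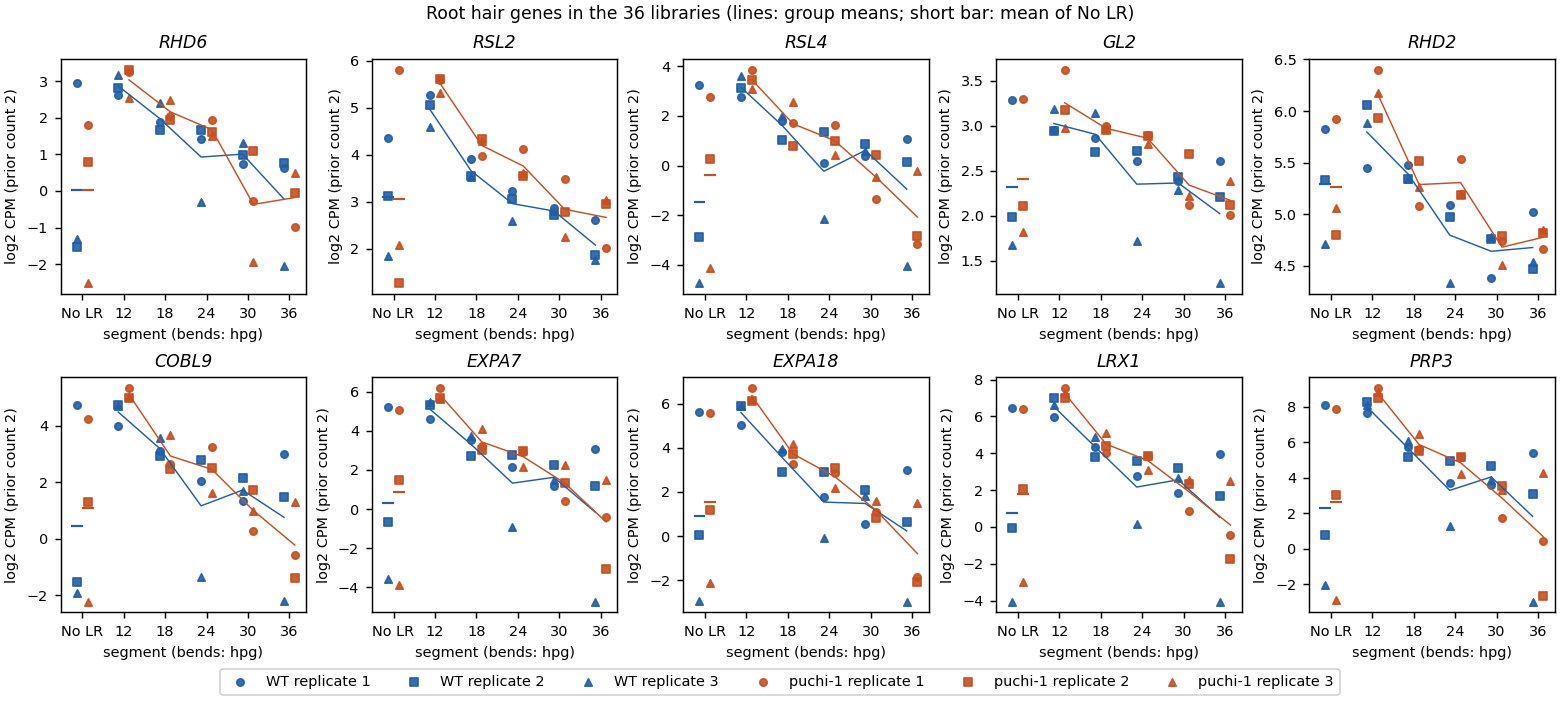
Level of each of the 10 genes (log2 CPM with a prior count of 2, vertical axes, different for each gene) in the 36 libraries, by segment (horizontal axes, bends in hpg) and genotype, with lines joining the group means of the bends and a short bar for the mean of ‘No LR’. The group mean of the bends is highest at 12 hpg in every panel and both genotypes, and replicate 1 of ‘No LR’ lies above the other ‘No LR’ replicates in every panel.

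*RHD6* encodes the bHLH factor at the head of the hair programme. Its level in WT bends at 12 hpg was 6.12, 6.94 and 9.05 CPM in replicates 1, 2 and 3, and at 36 hpg it was 1.52, 1.65 and 0.203 CPM. In *puchi-1* the values were 9.57, 9.86 and 5.72 CPM at 12 hpg and 0.465, 0.929 and 1.38 CPM at 36 hpg. The 12 and 36 hpg libraries did not overlap in either genotype, and *RHD6* fell in both (log2FC = -2.7, standard error (SE) 0.95, adjusted p = 0.0272 in the WT, and log2FC = -3.17, SE 0.96, adjusted p = 0.0123 in *puchi-1*).

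*RSL2* encodes a bHLH factor downstream of RHD6. In the WT it was at 38.7, 33.4 and 24.3 CPM at 12 hpg, 15.1, 11.7 and 11.5 CPM at 18 hpg, and 9.34, 8.38 and 5.97 CPM at 24 hpg. It then stood at 7.31, 6.62 and 6.99 CPM at 30 hpg and 6.09, 3.62 and 3.36 CPM at 36 hpg. The groups of 12, 18 and 24 hpg were thus stepped without overlap. In *puchi-1* it was at 48, 49 and 39.9 CPM at 12 hpg, 15.7, 20.1 and 19.6 CPM at 18 hpg, and 17.4, 11.8 and 12.2 CPM at 24 hpg. The later *puchi-1* values were 11.2, 6.84 and 4.75 CPM at 30 hpg and 3.98, 7.76 and 8.21 CPM at 36 hpg, which overlap each other. *RSL2* fell from 12 to 36 hpg by nearly the same amount in both genotypes (log2FC = -2.88, SE 0.7, adjusted p = 0.00266 in the WT, and log2FC = -2.78, SE 0.7, adjusted p = 0.00318 in *puchi-1*).

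*RSL4* encodes the bHLH factor whose amount is known to set the final length of hairs. It was at 6.77, 8.61 and 12 CPM at 12 hpg in the WT and at 2.07, 1.08 and 0.0226 CPM at 36 hpg. In *puchi-1* it was at 14.5, 11 and 8.4 CPM at 12 hpg and at 0.0751, 0.101 and 0.817 CPM at 36 hpg. The 36 hpg libraries of the WT spread widely, but no 36 hpg library reached a 12 hpg library of its genotype. The WT difference did not pass (log2FC = -3.09, SE 1.37, adjusted p = 0.0783). The *puchi-1* difference passed (log2FC = -4.96, SE 1.49, adjusted p = 0.0117).

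*GL2*, the gene of non-hair cells, had the smallest change. It was at 7.68, 7.65 and 9.02 CPM at 12 hpg in the WT and at 6.07, 4.59 and 2.35 CPM at 36 hpg. In *puchi-1* it was at 12.2, 8.93 and 7.78 CPM at 12 hpg and at 3.98, 4.32 and 5.18 CPM at 36 hpg. The WT difference lay at the threshold (log2FC = -0.9, SE 0.36, adjusted p = 0.0502) and the *puchi-1* difference passed (log2FC = -1.1, SE 0.36, adjusted p = 0.0188).

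*RHD2*, which makes reactive oxygen species at the hair tip, kept the highest 36 hpg levels relative to 12 hpg after *GL2*. In the WT it was at 43.7, 66.8 and 58.8 CPM at 12 hpg, 44.7, 40.4 and 40.5 CPM at 18 hpg, and 34, 31.3 and 20.1 CPM at 24 hpg. It was at 20.8, 27 and 27.4 CPM at 30 hpg and 32.5, 22.2 and 23.3 CPM at 36 hpg. The last 3 groups overlap, so no further step is seen after 24 hpg. In *puchi-1* it was at 84.7, 61.1 and 72.1 CPM at 12 hpg, 33.7, 45.8 and 38.2 CPM at 18 hpg, and 46, 36.5 and 36.6 CPM at 24 hpg, followed by 26.6, 27.7 and 22.7 CPM at 30 hpg and 25.3, 28.2 and 28.9 CPM at 36 hpg. *RHD2* fell in both genotypes (log2FC = -1.12, SE 0.25, adjusted p = 0.00147 in the WT, and log2FC = -1.4, SE 0.25, adjusted p = 0.00023 in *puchi-1*), and its SE was the smallest of the 10.

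*PRP3*, which encodes a proline-rich wall protein, had the highest counts and the widest range. In the WT it was at 200, 309 and 279 CPM at 12 hpg, 52.8, 36.2 and 68.8 CPM at 18 hpg, and 12.9, 30.5 and 2.39 CPM at 24 hpg. It was at 12.3, 25.3 and 14.6 CPM at 30 hpg and 42.3, 8.36 and 0.0903 CPM at 36 hpg. At 36 hpg replicate 1 was thus above every WT library of 24 and 30 hpg, and replicate 3 was below all of them. In *puchi-1* it was at 535, 365 and 450 CPM at 12 hpg, 48.9, 46.4 and 90.6 CPM at 18 hpg, and 36, 36.1 and 18.6 CPM at 24 hpg, then 3.29, 11.7 and 9.94 CPM at 30 hpg and 1.32, 0.121 and 19.3 CPM at 36 hpg. The fall passed in *puchi-1* (log2FC = -6, SE 1.99, adjusted p = 0.0214) and the WT difference did not pass (log2FC = -3.95, SE 1.81, adjusted p = 0.0889).

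*EXPA7* and *EXPA18* encode expansins of the hair wall. *EXPA7* was at 24, 40.2 and 44.3 CPM at 12 hpg in the WT and at 8.46, 2.2 and 0 CPM at 36 hpg, and in *puchi-1* at 72.8, 51.3 and 48.8 CPM and at 0.721, 0.0808 and 2.79 CPM. *EXPA18* was at 32.4, 59.8 and 58.5 CPM at 12 hpg in the WT and at 8.03, 1.54 and 0.0903 CPM at 36 hpg, and in *puchi-1* at 104, 70.4 and 74.2 CPM and at 0.24, 0.202 and 2.83 CPM. Both had the same order of replicates at 36 hpg in the WT, highest in replicate 1 and lowest in replicate 3. *EXPA18* fell in both genotypes (log2FC = -3.95, SE 1.47, adjusted p = 0.0369 in the WT, and log2FC = -6.13, SE 1.63, adjusted p = 0.00494 in *puchi-1*). *EXPA7* fell in *puchi-1* (log2FC = -5.5, SE 1.64, adjusted p = 0.0113), and its WT difference did not pass (log2FC = -3.33, SE 1.49, adjusted p = 0.081).

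*LRX1* encodes a leucine-rich repeat extensin and *COBL9* a GPI-anchored COBRA-like protein, both needed for normal hair walls. *LRX1* was at 63.2, 128 and 99 CPM at 12 hpg in the WT and at 15.5, 3.17 and 0.0226 CPM at 36 hpg, and in *puchi-1* at 186, 126 and 153 CPM and at 0.69, 0.263 and 5.66 CPM. *COBL9* was at 16.1, 27 and 26.1 CPM at 12 hpg in the WT and at 7.99, 2.75 and 0.181 CPM at 36 hpg, and in *puchi-1* at 40.4, 31.7 and 32.1 CPM and at 0.63, 0.343 and 2.42 CPM. Neither gene had a 36 hpg library that reached a 12 hpg library of its genotype. *LRX1* (log2FC = -6.06, SE 1.79, adjusted p = 0.0102) and *COBL9* (log2FC = -4.87, SE 1.42, adjusted p = 0.00958) fell in *puchi-1*. In the WT *LRX1* had a log2FC of -3.94 (SE 1.62, adjusted p = 0.0576) and *COBL9* of -2.65 (SE 1.29, adjusted p = 0.109).

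Across all genes tested, 1639 (6.33%) were called lower at 36 than at 12 hpg in the WT and 1968 (7.6%) in *puchi-1*, beside 4 of 10 and 10 of 10 members (12.5% and 14.2% of all genes in either direction). The median log2FC of the members was -2.98 in the WT and -4.92 in *puchi-1*, beside 0.04 and 0.07 over all genes. At an unadjusted p under 0.05 all 10 members were lower in each genotype. The WT count was less stable than that of *puchi-1*. It was 2 without WT 12 hpg replicate 2, WT 12 hpg replicate 3 or WT 36 hpg replicate 3. Without WT 36 hpg replicate 1 it was 7. It was 10 with the month in the sample titles as a covariate. In that covariate the undated libraries, WT 36 hpg replicate 1 among them, formed a level of their own. When the 30 bend libraries were fitted alone it was 9, an alternative chosen after the data were seen. The *puchi-1* count was 6 without *puchi-1* 36 hpg replicate 1 and 8 to 10 without each of the other libraries.

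**Figure D2:**
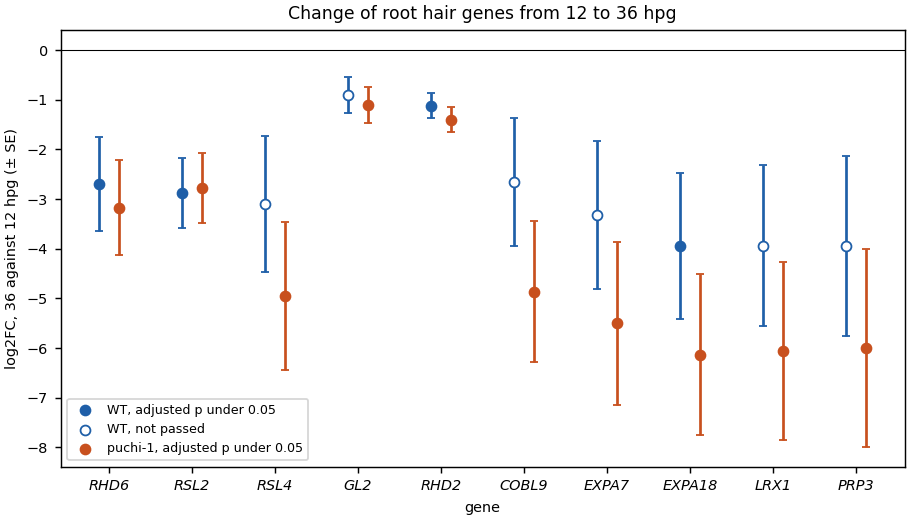
Log2FC of each of the 10 genes at 36 against 12 hpg (vertical axis, bars ± SE) in the WT (blue) and *puchi-1* (orange), with filled points for an adjusted p under 0.05. All 20 points lie below 0, *GL2* and *RHD2* lie closest to it, and the points of the wall genes are lower in *puchi-1* than in the WT with overlapping bars.

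The larger decline in *puchi-1* did not pass a test of its own. The change from 12 to 36 hpg in *puchi-1* minus that in the WT had a median of -1.96 over the members on the log2 scale, from -2.22 for *COBL9* to 0.1 for *RSL2*. None of the 10 passed (lowest adjusted p = 0.893, edgeR quasi-likelihood), 0 had an unadjusted p under 0.05, and DESeq2 called 0. Over all genes 7 (0.027%) were called. The SE of this difference was 1.75 for *COBL9* and 2.3 for *PRP3*. It rests on a spread estimated over all groups, ‘No LR’ included. In this fit, differences of the size seen in these genes could not be told from the spread of the libraries. With the bends fitted alone, 0 members were called too.

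Lower levels were already seen at 18 hpg for most members. In the WT, all 3 libraries at 18 hpg were below all 3 at 12 hpg for 8 of the 10 genes, all but *RHD2* and *GL2*, where 10.9% of all genes were placed so. In *puchi-1* this held for 9 of the 10, all but *GL2*, beside 13.6% of all genes. By 24 hpg all 10 were below 12 hpg without overlap in both genotypes (17% of all genes in the WT, 18% in *puchi-1*), and the same held at 30 hpg (21.6% and 20.9%) and at 36 hpg (23.3% and 22.3%). For scale, *LRX1* was at 20.4, 13.8 and 29.5 CPM at 18 hpg in the WT and at 16.2, 20.9 and 34 CPM in *puchi-1*, far below its 12 hpg values in both.

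Levels of different genes can be compared per length of exon. At 12 hpg in the WT, *PRP3* was the highest at 215 ± 46.3 CPM per kb (SD, n = 3), followed by *EXPA18* (40.1 ± 12.3 CPM per kb), *LRX1* (35.9 ± 12 CPM per kb) and *EXPA7* (32.4 ± 9.58 CPM per kb), which did not differ from each other beyond their spread. *RSL2* (23.3 ± 5.27 CPM per kb) and *RHD2* (17.1 ± 3.56 CPM per kb) came next, with overlapping ranges of mean ± SD, and then *COBL9* (10.2 ± 2.67 CPM per kb). The range of *RSL2* also overlapped those of *EXPA18*, *LRX1* and *EXPA7*, and that of *COBL9* overlapped that of *RSL4*. *RSL4* (6.81 ± 1.97 CPM per kb), *RHD6* (5.17 ± 1.06 CPM per kb) and *GL2* (2.53 ± 0.245 CPM per kb) were the lowest, and of these 3 only *GL2* stood apart beyond the SD. The order of the 10 was the same in *puchi-1* at 12 hpg, from *PRP3* at 369 ± 69.5 CPM per kb to *GL2* at 3.01 ± 0.721 CPM per kb. At 36 hpg *RHD2* stood first in *puchi-1* (8.36 ± 0.581 CPM per kb), followed by *PRP3* (5.65 ± 8.76 CPM per kb), whose SD exceeded its mean, and in the WT *PRP3* (13.8 ± 18.3 CPM per kb) and *RHD2* (7.91 ± 1.71 CPM per kb) did not differ beyond the spread.

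Between the genotypes, the 10 genes did not pass the test at any time point, and several leaned to higher values in *puchi-1* at 12 and 24 hpg. The log2FC of *puchi-1* relative to the WT was above 0 for 10 of 10 members at 12 hpg, with a median of 0.55 and a range of 0.19 to 0.78, and for 10 of 10 at 24 hpg, with a median of 0.78 and a range of 0.45 to 0.99. At 36 hpg it was below 0 for 7 of 10, with a median of -1.35. None passed, with a lowest adjusted p of 0.794 at 12 hpg, 0.845 at 18 hpg, 0.374 at 24 hpg, 0.977 at 30 hpg and 0.711 at 36 hpg (edgeR quasi-likelihood), and 0 of 10 had an unadjusted p under 0.05 at any of them. DESeq2 also called 0 at each. Over all genes 0.0502% were called at 12 hpg, 0.224% at 18 hpg, 0.406% at 24 hpg, 0.352% at 30 hpg and 0.521% at 36 hpg. The members correlate strongly across libraries, so 10 signs in 1 direction are not 10 separate observations.

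**Figure D3:**
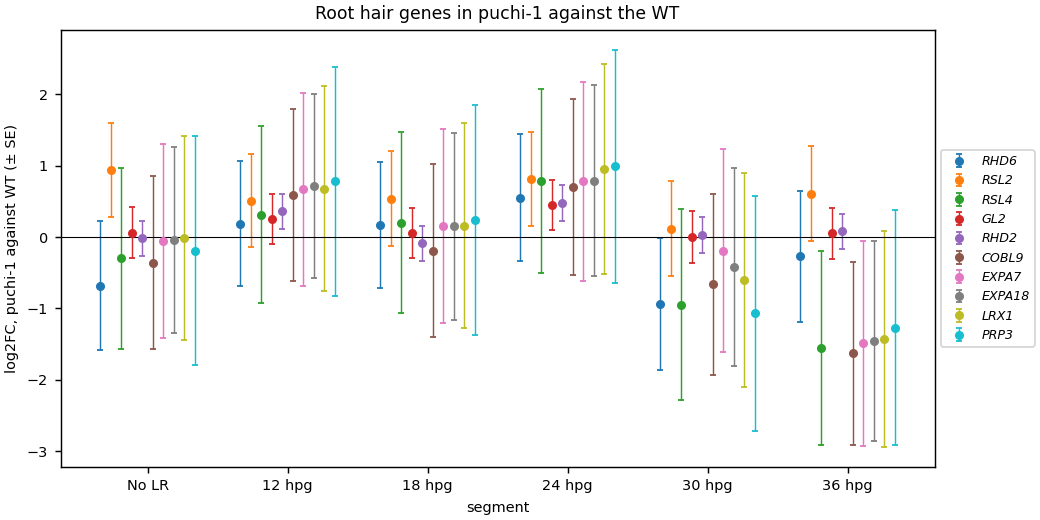
Log2FC of *puchi-1* against the WT (vertical axis, bars ± SE) for each of the 10 genes, coloured by gene, in ‘No LR’ segments and at the 5 bend time points. All points lie above 0 at 12 and 24 hpg, 7 of 10 lie below 0 at 30 and at 36 hpg, and the bars of *RHD2* and *GL2* are the shortest.

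Groups without overlap between the genotypes were seen for some members. All 3 *puchi-1* libraries at 12 hpg were above all 3 WT libraries for *RSL2*, *COBL9*, *EXPA7*, *EXPA18* and *PRP3*, 5 of 10, where 5.24% of all genes were placed so. At 18 hpg this held for *RSL2* alone (10.7% of all genes), and at 24 hpg for *RSL2*, *GL2* and *RHD2* (14.4%). At 30 hpg *PRP3* was lower in *puchi-1* without overlap (7.43% of all genes), and at 36 hpg every member overlapped (20.7% of all genes did not). *RSL2* was the only member whose *puchi-1* libraries lay above the WT at 12, 18 and 24 hpg. Its log2FC over the mean of the 5 bend time points was 0.52 (SE 0.29, adjusted p = 0.289, edgeR quasi-likelihood), and with the same value it passed when the 30 bend libraries were fitted without ‘No LR’ (adjusted p = 0.00592). Over this mean 0 of 10 members were called, with 1.46% of all genes called.

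In ‘No LR’ segments replicate 1 stood above the others in both genotypes. *PRP3* was at 275, 1.69 and 0.204 CPM in WT replicates 1, 2 and 3 and at 235, 8.05 and 0.0975 CPM in *puchi-1*. *EXPA18* was at 49.8, 0.991 and 0.0909 CPM in the WT and at 47.1, 2.26 and 0.195 CPM in *puchi-1*, and *RSL4* at 9.54, 0.0972 and 0 CPM and at 6.73, 1.17 and 0.0195 CPM. Replicate 1 was the highest for all 10 genes in both genotypes. For *COBL9*, *EXPA7*, *EXPA18*, *LRX1* and *PRP3* it lay within the range of the 12 hpg bends in the WT and below that range in *puchi-1*. *RHD2* differed least, at 56.8, 40.3 and 26.2 CPM in the WT and 60.5, 27.8 and 33.4 CPM in *puchi-1*. *GL2* came next, at 9.66, 3.95 and 3.16 CPM in the WT and 9.73, 4.28 and 3.49 CPM in *puchi-1*. *RSL2* in *puchi-1* was at 56.3, 2.38 and 4.19 CPM, its first replicate above every 12 hpg library. In the WT 1 member, *RSL2*, was lower in all 3 ‘No LR’ libraries than in all 3 at 12 hpg (5.74% of all genes), and in *puchi-1* 8 were (16.5% of all genes). Between the genotypes every member overlapped in ‘No LR’ (9.12% of all genes did not). In *puchi-1* the titles of replicates 2 and 3 share a replicate number and a date, and that of replicate 3 is marked ‘bis’, so they may not be separate harvests, although the source names number them as replicates and their levels differed (467 and 10 reads of *PRP3*). Replicate 1 carries no date in its sample title in either genotype, whereas replicates 2 and 3 are dated in August, and what the dates mark is not stated in the sources used here. Among the bends, WT 36 hpg replicate 1 and *puchi-1* 24 hpg replicates 1 and 3 carry no date either.

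Comparisons with ‘No LR’ segments, which share the 12 hpg libraries with those above, depended on 1 library in each genotype. No member was called at 12 hpg against ‘No LR’ in the WT (lowest adjusted p = 0.162, median log2FC 1.51, 1 member with an unadjusted p under 0.05, DESeq2 count 0, 2.46% of all genes called). In *puchi-1* *RHD2* alone passed, with a log2FC of 0.84 below the limit for a call (SE 0.25, adjusted p = 0.0165, 24.3% of all genes passing), so that 0 were called by edgeR and 1 by DESeq2, with 9.49% of all genes called and 3 members with an unadjusted p under 0.05. Without WT ‘No LR’ replicate 1 the count was 9, and without *puchi-1* ‘No LR’ replicate 1 it was 10, a count that rests on replicates 2 and 3 alone. Without either of these it stayed at 0. Between the genotypes in ‘No LR’ none passed (lowest adjusted p = 0.558, 0.367% of all genes called, 0 members with an unadjusted p under 0.05, DESeq2 count 0). *RSL2* turned from a log2FC of 0.94 (SE 0.66) to -1.72 (adjusted p = 0.0355) without *puchi-1* ‘No LR’ replicate 1.

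The 10 genes varied together over the 36 libraries, as a description and with the group differences included. Pearson correlations of log2 CPM between pairs of members ranged from 0.71 to 0.99 over the 45 pairs, with a median of 0.91. *COBL9*, *EXPA7*, *EXPA18*, *LRX1*, *PRP3* and *RSL4* formed the tightest set, at 0.96 to 0.99 for their 15 pairs. *RHD2* (0.71 to 0.87 with the other members) and *RSL2* (0.78 to 0.87) followed the rest less closely. *EXPA7* and *EXPA18* are similar in sequence, with 78.9% identity over 308 nt of transcript, and no stretch of 100 nt or longer in any member matched another gene at over 87.7%, found between *RHD6* and its close relative *RSL1* over 106 nt.

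Many other genes followed the same course. The mean log2 CPM of the 6 growth genes (*COBL9*, *EXPA7*, *EXPA18*, *RHD2*, *LRX1* and *PRP3*) was correlated with every other gene of at least 1 CPM on average, and 166 of 19084 genes had r of at least 0.9 over the 36 libraries. The 10 most alike were *COW1* (r = 0.993), a phosphatidylinositol transfer protein gene of hair tip growth, the extensin genes *EXT6* (0.993) and *EXT10* (0.992), *MOP10* (0.992), AT5G06630 (0.992), AT1G30870 (0.992), the arabinogalactan protein gene *AGP3* (0.991), the proline-rich protein gene *RHS13* (0.99), AT5G57625 (0.99) and the calcium pump gene *ACA9* (0.988).

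Other genes of the root hair pathway were counted from 4 lists. Of 11 genes that pattern the epidermis, 2 were lower and 1 was higher at 36 than at 12 hpg in the WT by the test. In *puchi-1*, 4 were lower and 1 was higher. *ETC1*, a single-repeat MYB gene of hair fate, fell (log2FC = -1.48, adjusted p = 0.00291 in the WT), and *SUB*, the gene of the receptor-like kinase SCRAMBLED by which epidermal cells read their position, rose from 8.88 ± 0.813 to 55.4 ± 9 CPM (SD, n = 3, log2FC = 2.64, adjusted p = 0.000835). *SUB* thus moved against the members, and it rose in *puchi-1* too (log2FC = 1.86, adjusted p = 0.00963). Of 10 hair regulators, 5 were lower and 1 was higher in each genotype. *LRL3*, a bHLH gene of hair growth, fell from 47.2 ± 16.5 to 1.5 ± 1.3 CPM in the WT (log2FC = -4.95, adjusted p = 0.00436), followed by *RSL3* (log2FC = -2.22, adjusted p = 0.00732), *LRL2* (log2FC = -1.35, adjusted p = 0.000235) and *GTL1*, which ends hair growth (log2FC = -1.16, adjusted p = 0.00183). *ZFP5*, a zinc finger gene that promotes hair formation, was the 1 that rose (log2FC = 2.18, adjusted p = 0.00132 in the WT, and log2FC = 2.58, adjusted p = 0.000419 in *puchi-1*).

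Of 15 other hair wall genes, 6 were lower and 0 higher at 36 than at 12 hpg in the WT. In *puchi-1*, 10 were lower and 0 higher. The peroxidase genes *RHS19* (log2FC = -4.47, adjusted p = 0.0185) and *PRX44* (log2FC = -4.24, adjusted p = 0.0124), *RHS13* (log2FC = -4.38, adjusted p = 0.0356) and the xyloglucan endotransglucosylase gene *XTH14* (log2FC = -3.74, adjusted p = 0.00267) fell most among those called in the WT. Of 21 genes of tip growth, 13 were lower and 1 higher in the WT. In *puchi-1*, 14 were lower and 0 higher. Among those called in the WT, the receptor-like kinase gene *CAP1* (log2FC = -3.84, adjusted p = 0.0247) and *COW1* (log2FC = -3.81, adjusted p = 0.0394) fell most. The actin depolymerizing factor gene *ADF8* (log2FC = -3.41, adjusted p = 0.0324) and the calcium channel gene *CNGC14* (log2FC = -3.05, adjusted p = 0.00828) came next. Over all genes, 17.3% passed lower in the WT and 15.9% in *puchi-1*, and 18.9% and 17.7% passed higher. Between the genotypes no gene of the 4 lists was called in any comparison, and *BST1*, singled out after its values were seen, was the one that passed over the mean of the bends (log2FC = -0.34, SE 0.11, adjusted p = 0.0376, 10.9% of all genes). The study, using DESeq2, reported the patterning gene *WER* as lower in *puchi-1* at 30 and 36 hpg. Its figure gives Wald test p-values and does not state that they are adjusted. In the fit used here the log2FC of *WER* was -1.37 and -2.44 (unadjusted p = 0.129 and 0.0102, edgeR quasi-likelihood). It did not pass after adjustment over all genes (adjusted p = 0.938 and 0.256).

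The 4 members with an RHE match, *EXPA7*, *EXPA18*, *LRX1* and *PRP3*, had the lowest log2FC of the 10 at 36 against 12 hpg in both genotypes, -3.95 to -3.33 in the WT and -6.13 to -5.5 in *puchi-1*. Of the 4, *EXPA18* alone passed in the WT. The gap to *RSL4*, which has no match, lay within the SE. *RSL4* was at -3.09 (SE 1.37) beside -3.33 (SE 1.49) for *EXPA7* in the WT. In *puchi-1* it was at -4.96 (SE 1.49) beside -5.5 (SE 1.64). Among the 15 other hair wall genes 4 had a match (*LRX2*, *PRP1*, *RHS18* and *RHS13*), as did 1 of the 21 tip growth genes (*MRH6*) and 0 of the regulators and patterning genes. Of the 211 other genes tested that had a match, 14.2% were called lower in the WT and 20.9% in *puchi-1*, beside 6.33% and 7.6% of all genes, and 5.69% and 6.64% were called higher, beside 6.18% and 6.57%. Their median log2FC was -0.24 and -0.17, so most genes with a match did not fall as these members did. The 211 include the hair wall and tip growth genes just named. As the motif comes from promoters of hair-specific genes, these shares are not an independent test of the motif.

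Markers of the endodermal barrier moved with the members. These 8 genes (*CASP1* to *CASP5*, *ESB1*, *PER64* and *MYB36*) build or direct the Casparian strip of the endodermis, a tissue that forms no hairs. By the test 7 of the 8 were lower at 36 than at 12 hpg in each genotype, the exception being *MYB36*. Their summed level was 613 to 1030 CPM at 12 hpg and 27.2 to 69.5 CPM at 36 hpg in the WT, and 753 to 1120 CPM and 27.2 to 45.7 CPM in *puchi-1*. In ‘No LR’ it was 18.7, 43.9 and 945 CPM from lowest to highest in the WT and 28, 44.1 and 836 CPM in *puchi-1*, with replicate 1 the highest in both. The mean log2 CPM of the 6 growth genes and that of the 8 barrier genes had a Pearson correlation of 0.94 over the 36 libraries, 0.93 over the 30 bends and 0.99 over the 6 ‘No LR’ libraries, which share the same groups.

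**Figure D4:**
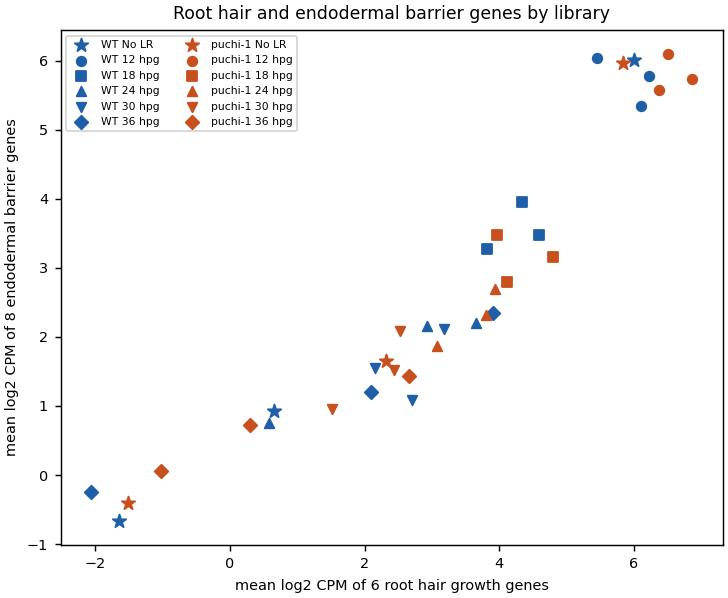
Mean log2 CPM of the 6 root hair growth genes (horizontal axis) and of the 8 endodermal barrier genes (vertical axis) in each of the 36 libraries, by genotype (colour) and segment (shape). The 6 libraries of 12 hpg and replicate 1 of ‘No LR’ of both genotypes lie together at the upper right, and the remaining ‘No LR’ libraries lie among or below the 24 to 36 hpg bends.

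Markers of other tissues moved in part. Of the 3 primordium markers, *GATA23*, a transcription factor gene of the first steps of LR formation, fell from 1.66 to 0.0366 CPM on average in the WT (log2FC = -5.31, SE 1.18, adjusted p = 0.00127, with 6 reads in all at 36 hpg), a log2FC below that of any member there, and also in *puchi-1* (log2FC = -3.37, adjusted p = 0.007). *LBD16* passed lower in the WT alone (log2FC = -0.77, adjusted p = 0.0037) and *LBD29* in neither. Of the 2 pericycle markers, *SKOR*, a potassium channel gene of the stele, fell in the WT (log2FC = -3.25, adjusted p = 0.000193) and in *puchi-1* (log2FC = -1.97, adjusted p = 0.00604), while *PHO1*, a phosphate exporter gene, passed higher in *puchi-1* alone (log2FC = 0.4, adjusted p = 0.0125). The 3 xylem markers were lower at 36 hpg in both genotypes, with a summed level of 657 to 935 CPM at 12 hpg and 170 to 197 CPM at 36 hpg in the WT. Of the 2 cortex markers 0 passed in the WT and 1 was lower in *puchi-1*, at a summed level of 1.8 to 2.57 CPM at 12 hpg and 0.0903 to 1.02 CPM at 36 hpg in the WT. The 2 root cap markers, at 3.1 to 6.83 CPM at 12 hpg and 2.28 to 5.61 CPM at 36 hpg in the WT, and the 2 markers of dividing cells, at 36.2 to 48.6 and 51.5 to 56.7 CPM, did not pass in either genotype. Neither did the 2 shoot markers, and of the 3 phloem markers *APL* passed higher in both (log2FC = 0.8 in the WT and 0.67 in *puchi-1*). Pearson correlations with the growth genes over the 36 libraries were 0.82 for cortex, 0.72 for xylem, 0.70 for pericycle, 0.76 for primordium, 0.60 for root cap, -0.35 for phloem, -0.30 for dividing cells and -0.03 for shoot markers. The part of the maturity or position of the segments in the levels of the root hair genes was not tested.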

How the data were processed

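RNA from root segments of WT and *puchi-1* seedlings was sequenced in 36 libraries. The authors aligned the reads to TAIR10.1 with TopHat2 (version 2.1.1, using Bowtie2 version 2.3.5.1), dropped alignments with more than 6 mismatches and counted reads per gene, on the reverse strand, using featureCounts (version 2.0.0). The deposited values are raw counts without filter or normalization. The treatment of read pairs and of multiply aligned reads is not given in the sources used here. Of 37973 rows, 87 carried no locus tag (0.07 to 0.362% of the counts of a library). They were not removed and went through the same filter as the other rows.

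Groups were taken from the source names of the samples. Genes with fewer than 15 reads over the 36 libraries were dropped, leaving 25889. Counts were scaled by TMM and fitted by edgeR (version 4.0.16, R version 4.3.3) in 1 quasi-likelihood model of the 12 groups with 24 residual degrees of freedom. The spread of each gene was thus estimated over all groups, ‘No LR’ included, for every comparison. Adjustment of p-values followed Benjamini and Hochberg, separately for each comparison. Log2 CPM used a prior count of 2. The fitting code was tested on simulated counts. DESeq2 (version 1.42.0), the tool of the study, was an alternative, as were RLE scaling, other filters and the groups compared alone. So were the month in the sample titles as a covariate, a replicate block and leaving out each replicate. For the month, libraries without a date formed a level of their own, and the year was not used.

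Replicate numbers are shared between groups. Deviations from the group means of same-numbered libraries correlated over 0.1 in every pair only for the genotypes at 18 hpg (0.63, 0.33 and 0.68) and for *puchi-1* ‘No LR’ and 12 hpg (0.22, 0.22 and 0.18), 2 of 10 group pairs, so they were taken as paired there, and with the block 0 members were called in either comparison, as without it.

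The members, the lists of related genes and of tissue markers, and the tests were chosen with earlier results of these data known. All members are named. From each related list up to 4 genes in each direction were named, those with the largest change among the genes called at 36 against 12 hpg in the WT, and the 10 genes most like the members are those with the highest Pearson correlation. Upstream sequences were read from the RefSeq TAIR10.1 genome, and similar genes were sought with BLAST (version 2.17.0).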

Additional observations from a re-analysis of the deposited data

How the results depend on the processing

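Counts at 12 hpg against ‘No LR’ and at 36 against 12 hpg in the WT depended on the processing. The 4 members called at 36 against 12 hpg in the WT became 6 with DESeq2, 10 with the month in the titles as a covariate and 9 with the bends alone (chosen after the data were seen), and ranged from 2 to 7 without each library in turn. In *puchi-1* the count was 10 under each of 8 such alternatives and 6 to 10 without each library. Members called at 12 hpg against ‘No LR’ were 8 with the month in the WT, 6 with it in *puchi-1* and 1 there with DESeq2. The month covariate put undated libraries in a level of their own, ‘No LR’ replicate 1 of both genotypes among them. Without each library the count ranged from 0 to 9 in the WT and from 0 to 10 in *puchi-1*. Between the genotypes the count was 0 under every alternative at each bend time point and over their mean, without any library too, and 0 to 1 in ‘No LR’, where the log2FC of *RSL2* ran from -1.72 (without *puchi-1* replicate 1) to 1.73 (without WT replicate 1). The test of the change between genotypes called 0 throughout. The log2FC at 36 against 12 hpg kept its sign for every member under all alternatives. With the replicate block the WT count at 36 against 12 hpg was 6, where the numbers do not pair the libraries (correlations of 0.21, -0.03 and 0.07). The block left the count at 10 in *puchi-1* and at 0 in the paired comparisons. The causes of these differences were not tested. RLE scaling moved 120 of 120 group levels of the members by less than 1 SD. Members with few reads at 36 hpg, such as *RSL4* and *EXPA7*, limit what can be said of late differences.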
